A study of Mus musculus with 9 samples.

Results

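The glucocorticoid receptor, its chaperones and 3 of its classical target genes were followed in mouse liver RNA. Of the 9 genes listed (Fkbp5, Fkbp4, Nr3c1, Hsp90aa1, Hsp90ab1, Ptges3, Stip1, Zbtb16 and Tsc22d3), 8 were measured by 1 probe set each, among 22206 probe sets tested on the arrays. Hsp90ab1 was not analysed here, because no probe set was listed under its symbol in the platform annotation. The genes were chosen by name for their place in this pathway, with results of these arrays already known. Fkbp5 and Zbtb16 were in addition selected on these very arrays by the study, in a list of genes that were higher in MUP than in WT livers and lower in HNK than in MUP livers. Their levels are therefore given as a description, with no test, and the other 6 genes were tested.

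RNA of 9 non-tumor liver samples of male C57BL/6 mice, 40 weeks of age and fed a high-fat diet from week 6, was hybridised to Clariom S arrays, microarrays that report the RNA of a gene through several short probes. HNK livers came from MUP-uPA mice that received honokiol, a compound of magnolia bark, at 10 mg/kg by intraperitoneal injection 3 times per week between weeks 32 and 40. MUP livers came from MUP-uPA mice of the control treatment, and WT livers from wild-type mice of the control treatment, with 3 arrays per group. In MUP-uPA mice the promoter of the major urinary protein drives urokinase-type plasminogen activator in hepatocytes, so that every HNK and MUP animal carries chronic hepatocyte injury as well as the diet that all 3 groups share. The study's methods describe the vehicle as PBS with Intralipid and the wild-type controls as littermates. The deposit's design text counts 6 mice, whereas 9 samples carry group labels, and no honokiol-treated WT group was part of the samples analysed here. A legend of the study counts livers for the WT and MUP groups. Nothing else states that arrays of a group came from separate animals, and p-values measure the spread between these arrays.

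Before it binds hormone, the glucocorticoid receptor is held in the cytosol by the HSP90 machine. HSP70 hands the receptor to HSP90 through the adaptor protein HOP, and p23 then stabilises the mature complex in which the hormone pocket is open. FKBP51, the product of Fkbp5, binds HSP90 in this complex and lowers the affinity for hormone, while its relative FKBP52, the product of Fkbp4, replaces it when hormone binds and favours transport to the nucleus. The active receptor induces Fkbp5 itself, which closes a short negative feedback loop, and in liver it drives genes of gluconeogenesis and amino acid breakdown.

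The data of the 9 arrays were of similar overall brightness, with medians between 5.52 and 5.62 on the log2 scale and medians of the negative controls between 4.91 and 5.10. The 9 measured hepatocyte markers had a median of 18.69 to 19.03 on every array, which fits the tissue label. All 22 skeletal muscle markers were brighter than the middle negative control on 2 arrays, HNK 3 and MUP 2. Their medians were 12.41 in HNK 3 and 12.67 in MUP 2, against 4.26 to 4.74 on the other 7 arrays. On those 7 arrays 12 to 15 of the 22 were no brighter than the middle negative control. Of the macrophage markers, 9 of 10 were measured and their summed linear intensity ranged over 3651 to 21658 in HNK, 5971 to 19579.6 in MUP and 27672 to 84129 in WT livers. Of 8 sinusoidal endothelial markers the sums were 4880.2 to 6786 in HNK, 6090.2 to 12496 in MUP and 17512 to 25351 in WT livers. For 9 stellate and fibroblast markers they were 28499 to 69283 in HNK, 35791 to 55366 in MUP and 74543 to 92114 in WT livers. Every macrophage and endothelial marker was brighter than the middle negative control on every array. The WT livers thus stood above the other groups in all 3 sums, and in bulk tissue fewer cells of a type and less RNA per cell cannot be told apart. Medians over the markers stood highest in WT without overlap for macrophages only. Stellate medians were 6.71 to 8.01 in HNK, 6.33 to 7.79 in MUP and 7.06 to 7.66 in WT livers. The endothelial median was 10.19 in MUP 1, against 10.02 to 10.09 in WT livers. The stellate sum was mostly that of Dcn, which was at 16.16 to 16.47 in WT livers.

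In the RefSeq table of the mouse genome (GRCm38.p6), which holds the 250 bases before and 50 after a start site, 5 of the 9 genes had a window. Shown first are the windows of the relatives Fkbp5 and Fkbp4, with motif matches in capitals. The motifs searched on both strands were the heat shock element cores GAANNTTC and TTCNNGAA, the glucocorticoid receptor half-site AGAACA, the box named CCAAT and the TATA box, which reads TATAAA. No motif overlaps another in the windows printed, and a match on the other strand appears as its reverse complement.
Fkbp5, chr17:28486100-28486399, minus strand: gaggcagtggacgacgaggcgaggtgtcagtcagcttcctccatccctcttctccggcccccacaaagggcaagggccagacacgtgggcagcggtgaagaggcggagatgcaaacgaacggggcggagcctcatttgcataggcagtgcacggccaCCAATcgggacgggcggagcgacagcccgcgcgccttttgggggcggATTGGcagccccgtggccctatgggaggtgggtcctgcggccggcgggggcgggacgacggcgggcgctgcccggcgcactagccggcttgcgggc
Fkbp4, chr6:128438607-128438906, minus strand: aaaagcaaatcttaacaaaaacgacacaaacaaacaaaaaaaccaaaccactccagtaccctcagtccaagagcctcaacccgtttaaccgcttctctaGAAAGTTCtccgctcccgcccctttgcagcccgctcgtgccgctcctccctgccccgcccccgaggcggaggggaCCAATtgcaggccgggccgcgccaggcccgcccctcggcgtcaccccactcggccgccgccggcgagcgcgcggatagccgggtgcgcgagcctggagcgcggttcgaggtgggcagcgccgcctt
The Fkbp5 window holds 2 CCAAT boxes, of which 1 is on the other strand, and no match to the receptor half-site or to a heat shock element core. The Fkbp4 window holds 1 heat shock core, 151 bases before the start site, and 1 CCAAT box. Of all 32851 windows in the table, 7.86% hold GAANNTTC, 8.52% TTCNNGAA, 19% the half-site, 37.4% a CCAAT box and 13.6% a TATA box.

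Stip1 is shown as a chaperone gene that passed the test and Tsc22d3 as the receptor target that is not in the study's list. For Tsc22d3 the table gives 3 start sites, and the one printed is the only one of them with a half-site match.
Stip1, chr19:7039977-7040276, minus strand: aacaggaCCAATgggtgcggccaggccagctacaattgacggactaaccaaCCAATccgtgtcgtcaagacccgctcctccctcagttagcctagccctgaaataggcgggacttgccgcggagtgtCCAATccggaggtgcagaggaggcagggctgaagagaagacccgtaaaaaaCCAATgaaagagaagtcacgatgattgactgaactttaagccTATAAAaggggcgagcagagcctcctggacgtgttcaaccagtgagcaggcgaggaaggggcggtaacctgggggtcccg
Tsc22d3, chrX:140600473-140600772, minus strand: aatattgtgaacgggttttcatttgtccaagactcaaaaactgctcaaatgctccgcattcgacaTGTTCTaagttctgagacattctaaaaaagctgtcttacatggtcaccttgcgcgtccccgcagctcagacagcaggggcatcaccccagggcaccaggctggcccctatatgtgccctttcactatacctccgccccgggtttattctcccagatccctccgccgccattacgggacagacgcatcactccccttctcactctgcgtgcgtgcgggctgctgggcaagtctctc
The Stip1 window holds 4 CCAAT boxes on the printed strand and a TATA box 30 bases before the start site, and neither heat shock core nor half-site. The Tsc22d3 window holds 1 half-site, on the other strand, 185 bases before the start site. The window of Ptges3 (chr10:128058732-128059031, plus strand) holds none of the motifs. A match or its absence describes these 300 bases only, and sites elsewhere in a gene were not looked for.

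Fkbp5 (Entrez gene 14229) was brightest in the MUP livers. Its log2 intensity was 10.14, 10.17 and 9.36 in HNK 1 to HNK 3, 11.69, 11.15 and 12.36 in MUP 1 to MUP 3, and 9.33, 9.66 and 10.21 in WT 1 to WT 3. All MUP arrays lay above all arrays of the other groups, while HNK and WT overlapped. The mean was 9.89 ± 0.46 in HNK, 11.74 ± 0.60 in MUP and 9.73 ± 0.44 in WT livers (SD, n = 3 each), which is 4.0-fold higher in MUP than in WT and 3.60-fold lower in HNK than in MUP. The mean of HNK stood 0.16 log2 units above that of WT, less than the SD of either group, so these neighbours in the order did not differ beyond their spread. Within MUP and within HNK, the array with muscle transcripts was the lowest for Fkbp5. Without MUP 2 and HNK 3 the differences were 2.29 for MUP against WT and -1.87 for HNK against MUP, against 2.0 and -1.85 with all arrays.

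Zbtb16 (Entrez gene 235320) encodes the transcription factor PLZF, a strongly glucocorticoid-induced gene in many tissues. Its log2 intensity was 7.91, 8.65 and 8.39 in HNK, 10.003, 9.95 and 10.78 in MUP, and 7.62, 8.71 and 9.42 in WT livers. As for Fkbp5, every MUP array lay above every other array and HNK overlapped with WT. The differences were 1.67 log2 units for MUP against WT and -1.93 for HNK against MUP, with -0.26 for HNK against WT. Zbtb16 was dim on 3 of 9 arrays (HNK 1, HNK 3 and WT 1), where it lay at or below the 95th percentile of the negative controls, so that 1 of 3 HNK, 3 of 3 MUP and 2 of 3 WT arrays measured it above that level and the HNK and WT means rest in part on such dim values. Of all 22206 probe sets, 11% had MUP arrays that were all higher than the WT arrays and 4.48% had HNK arrays that were all lower than the MUP arrays, and nothing is read from the place of Fkbp5 and Zbtb16 among them, because that pattern chose them. Without WT 1, the lowest array for both genes, the difference of MUP against WT was 1.80 for Fkbp5 and 1.18 for Zbtb16.

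**Figure D1:**
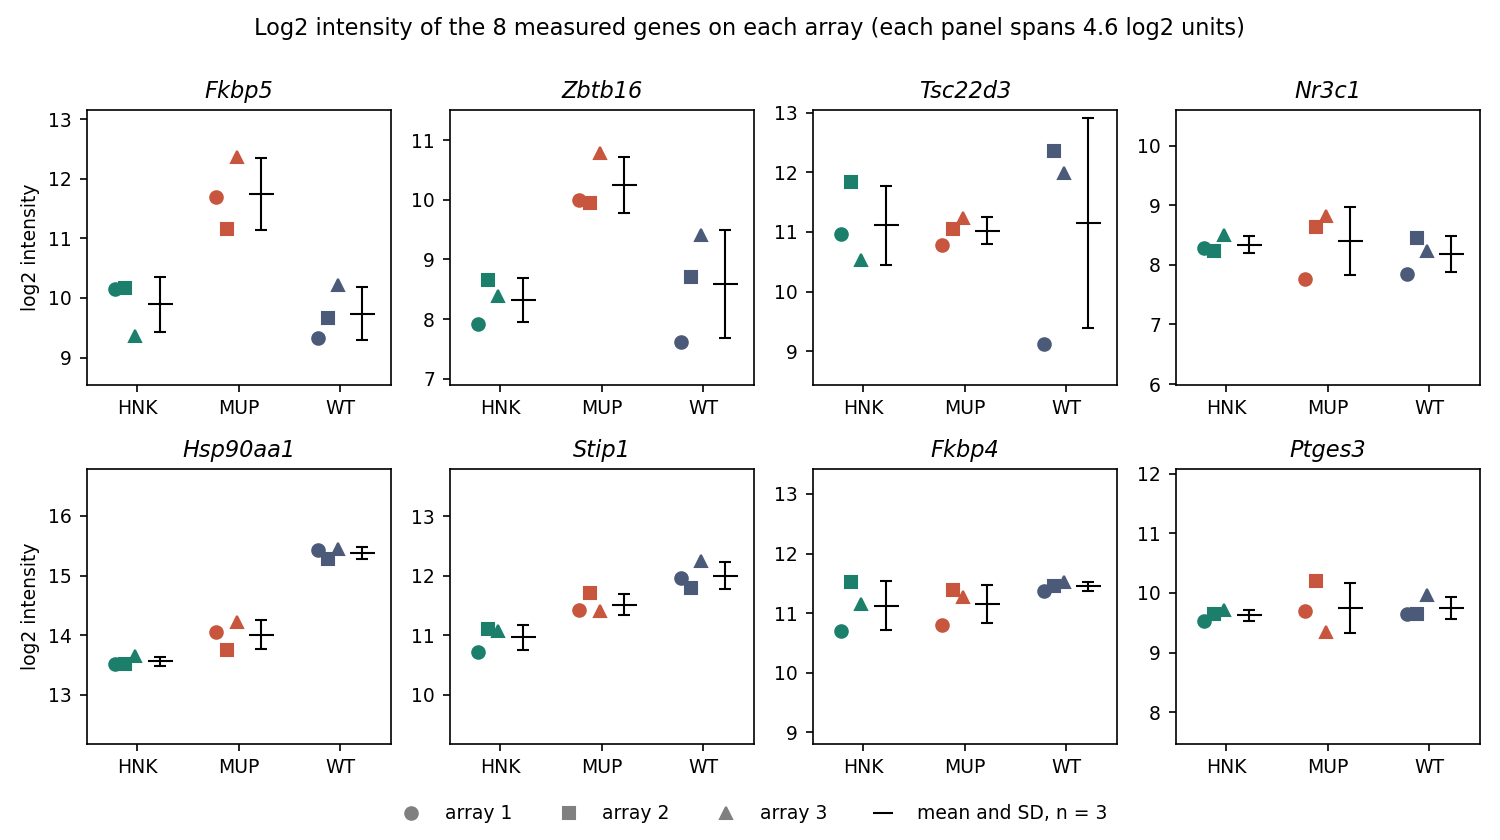
Log2 intensity (vertical axis) of the 8 measured genes on each array, by group (horizontal axis, HNK, MUP, WT); marker shapes give the array number and black bars the mean and SD of 3 arrays. The 3 MUP arrays lie between 11.15 and 12.36 for Fkbp5, above the other 6, whereas for Hsp90aa1 the 3 WT arrays lie between 15.27 and 15.44, above the other 6, and WT 1 stands apart at 9.13 for Tsc22d3.

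Tsc22d3 (Entrez gene 14605) encodes GILZ, an anti-inflammatory leucine zipper protein that the receptor induces directly. One of its windows above holds a half-site, and the Fkbp5 window holds none. Tsc22d3 was not at its highest in MUP. Fkbp5 and Zbtb16 were chosen on these arrays for being higher there, so nothing is read from the contrast with them. Its log2 intensity was 10.96, 11.83 and 10.54 in HNK, 10.78, 11.05 and 11.24 in MUP, and 9.13, 12.35 and 11.98 in WT livers. The highest and the lowest of the 9 arrays were both WT, with an SD of 1.76 in WT against 0.66 in HNK and 0.23 in MUP. The differences were -0.13 (95% interval -1.57 to 1.30) for MUP against WT, 0.09 (-1.35 to 1.52) for HNK against MUP and -0.04 (-1.48 to 1.39) for HNK against WT, so changes of more than 2-fold in either direction lay within each interval. WT 1 decided these values. Without it Tsc22d3 was at -1.14 log2 units for MUP against WT (limma adjusted p = 0.16) and at -1.06 for HNK against WT (adjusted p = 0.24), neither of which passed the test.

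The receptor gene itself, Nr3c1 (Entrez gene 14815), had a log2 intensity of 8.29, 8.23 and 8.50 in HNK, 7.76, 8.63 and 8.83 in MUP, and 7.85, 8.45 and 8.23 in WT livers. All 3 groups overlapped. The differences were 0.23 (95% interval -0.39 to 0.85) for MUP against WT, -0.07 (-0.69 to 0.56) for HNK against MUP and 0.16 (-0.46 to 0.79) for HNK against WT, and none passed the test. Nr3c1 was at or below the 95th percentile of the negative controls on 5 of 9 arrays.

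Among the chaperones, the gene of HSP90 alpha was lower than in WT in both HNK and MUP livers, and that of HOP in HNK livers. Hsp90aa1 (Entrez gene 15519), the stress-inducible cytosolic HSP90, had a log2 intensity of 13.52, 13.52 and 13.65 in HNK, 14.06, 13.75 and 14.22 in MUP, and 15.43, 15.27 and 15.44 in WT livers. The 3 groups did not overlap and were ordered HNK below MUP below WT, with the 3 arrays of a group within 0.47 log2 units of each other. Hsp90aa1 was 2.59-fold lower in MUP than in WT livers (log2 difference -1.37, SE 0.17, limma adjusted p = 0.0017) and 3.52-fold lower in HNK than in WT livers (-1.82, SE 0.17, adjusted p = 0.00037). Between HNK and MUP the difference was -0.45 (95% interval -0.81 to -0.08), which did not pass the test over all probe sets (adjusted p = 0.998). Without MUP 2 and HNK 3 these 3 differences were -1.24, -1.86 and -0.62, and the first 2 remained called. The macrophage, endothelial and stellate sums above were also highest in WT (the medians for macrophages only), and their part in the Hsp90aa1 difference was not tested.

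Stip1 (Entrez gene 20867) encodes HOP, the adaptor between HSP70 and HSP90. Its log2 intensity was 10.72, 11.10 and 11.08 in HNK, 11.42, 11.71 and 11.41 in MUP, and 11.97, 11.80 and 12.24 in WT livers. As for Hsp90aa1, the groups did not overlap and followed the order HNK, MUP, WT from low to high, although MUP and WT were only 0.08 log2 units apart at their nearest arrays. Stip1 was 2.05-fold lower in HNK than in WT livers (-1.04, SE 0.20, limma adjusted p = 0.021). The difference of MUP against WT was -0.49 (95% interval -0.92 to -0.06, adjusted p = 0.23) and that of HNK against MUP -0.55 (-0.98 to -0.12, adjusted p = 0.998), and neither was called. The call in HNK against WT was lost when WT 1, WT 3, HNK 1 or HNK 3 was left out (adjusted p from 0.051 to 0.11), with differences that stayed between -1.14 and -0.92.

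No difference of the remaining 2 co-chaperones passed the test. Fkbp4 (Entrez gene 14228), which encodes FKBP52, the relative of FKBP51 that favours hormone binding, was at 10.70, 11.52 and 11.15 in HNK, 10.79, 11.39 and 11.26 in MUP, and 11.37, 11.46 and 11.52 in WT livers. Its differences were -0.30 (95% interval -0.82 to 0.22) for MUP against WT, -0.03 (-0.55 to 0.49) for HNK against MUP and -0.33 (-0.84 to 0.19) for HNK against WT. Ptges3 (Entrez gene 56351), which encodes p23, was at 9.53, 9.64 and 9.71 in HNK, 9.69, 10.19 and 9.35 in MUP, and 9.64, 9.64 and 9.96 in WT livers. Its differences were -0.0018 (-0.51 to 0.51), -0.12 (-0.63 to 0.39) and -0.12 (-0.63 to 0.39) in the same order of comparisons.

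**Figure D2:**
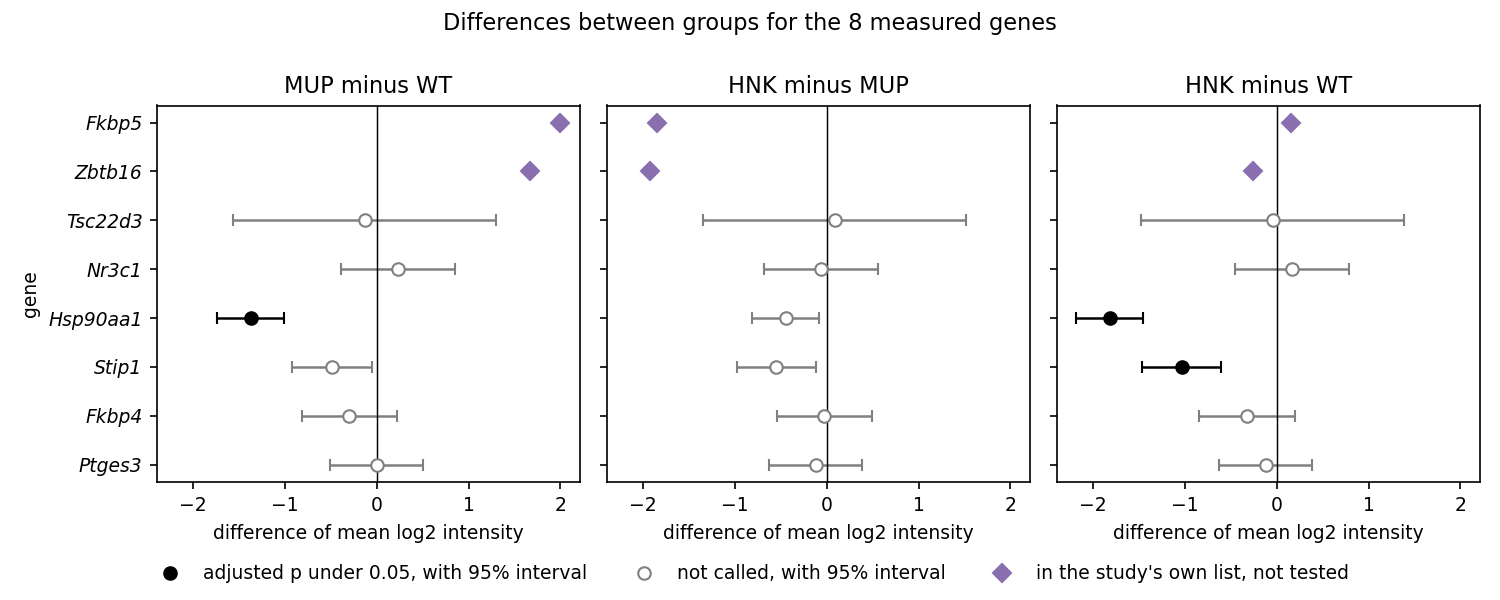
Difference of mean log2 intensity (horizontal axis) for each of the 8 measured genes (vertical axis) in 3 comparisons of 3 arrays against 3; bars are 95% intervals of the limma fit, filled circles passed an adjusted p of 0.05, and diamonds are the 2 genes of the study's own list, shown without interval or test. Hsp90aa1 lies at -1.37 and -1.82 in the comparisons with WT, and all 6 tested genes are open circles in HNK minus MUP.

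Counted over the 6 tested genes, 1 was called lower and 0 higher in MUP against WT, where 2.13% of all probe sets were called lower and 3.58% in either direction. In HNK against WT 2 were called lower and 0 higher, where 1.33% of all probe sets were called lower and 2.29% in either direction. In HNK against MUP none was called by limma or by the methods' t-test after adjustment, where 0.0045% of all probe sets (1 of 22206) were called by limma. At an unadjusted p under 0.05 limma and the methods' t-test each took 2 of the 6 in every comparison, against 17.3% of all probe sets by limma for MUP and 14.1% for HNK set against WT, and 4.36% for HNK set against MUP. Without overlap between the arrays of both groups, Hsp90aa1 and Stip1 were lower in all 3 comparisons, as were 12.5% of all probe sets in MUP and 11.1% in HNK set against WT, and 4.48% in HNK set against MUP. The comparisons share arrays (MUP is in 2 of them, and so is WT), so their values are not independent of each other. With 3 arrays against 3, an exact two-sided permutation test of a single gene cannot go below p = 0.1. Every gene without overlap reaches that value, Hsp90aa1 and Stip1 included, so the test adds nothing to the count without overlap. In either direction, 23.4% of all probe sets did not overlap in MUP against WT, 20.5% in HNK against WT and 8.59% in HNK against MUP.

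**Figure D3:**
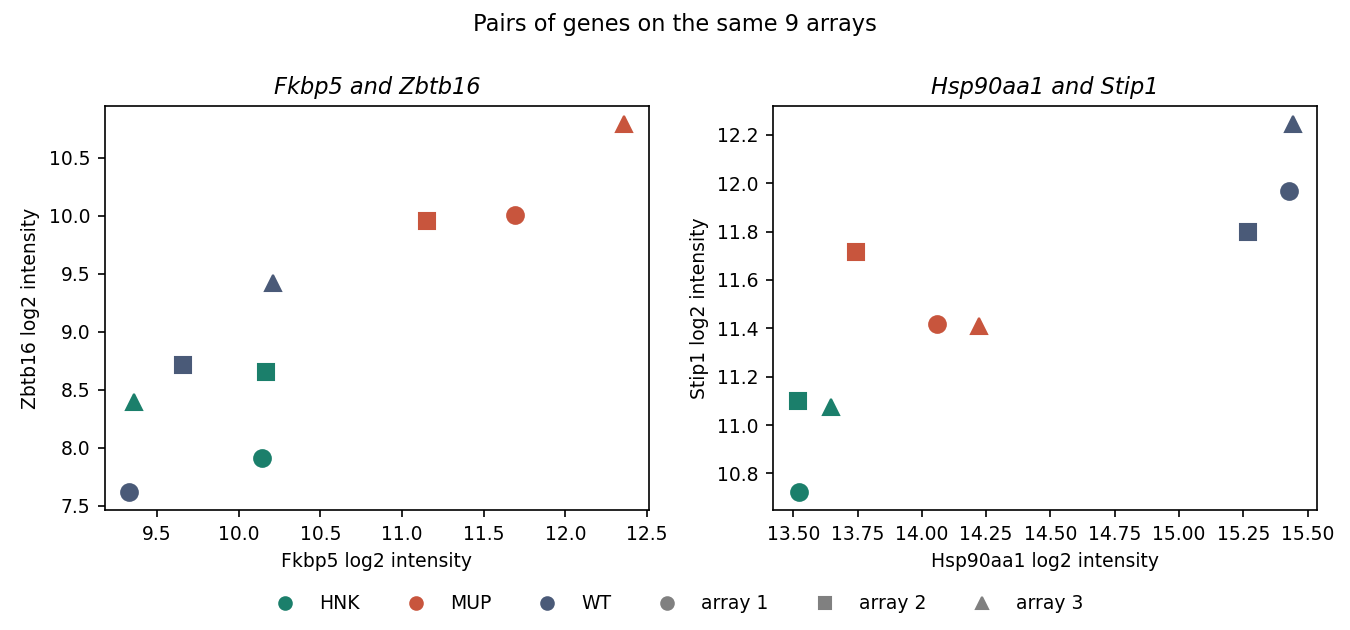
Log2 intensity of Fkbp5 against Zbtb16 (left) and of Hsp90aa1 against Stip1 (right) on the same 9 arrays; colours give the group and shapes the array number. MUP 3 is the highest array and WT 1 the lowest for both Fkbp5 and Zbtb16, while on the right the arrays fall into 3 separate groups.

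The genes whose levels followed Fkbp5 most closely over the 9 arrays, of 4710 genes with a mean above the 95th percentile of the negative controls, were Rps28, Dmxl1, Reps2, Smpd1 and Etf1. Their Pearson r was 0.94, 0.92, 0.92, 0.92 and 0.91, and 0.94, 0.90, 0.95, 0.93 and 0.93 on the 7 arrays without MUP 2 and HNK 3. On those 7 arrays they ranked 13, 35, 6, 15 and 18, so none of the 5 was among the 5 closest. Rps28, a gene of the small ribosomal subunit, ranged over 10.56 to 10.87 in HNK, 10.99 to 11.47 in MUP and 10.51 to 10.62 in WT livers. Reps2, an endocytic adaptor gene, showed the largest difference of the 5 between MUP and WT, with 10.20 to 10.49 in HNK, 10.68 to 11.21 in MUP and 9.83 to 9.98 in WT livers. For Hsp90aa1 the closest were St3gal3, a sialyltransferase gene (r = 0.993, and 0.996 on 7 arrays), Acad8 (0.98 and 0.98) and Cnih1 (0.98 and 0.98). St3gal3 ranged over 13.11 to 13.21 in HNK, 13.10 to 13.56 in MUP and 14.25 to 14.41 in WT livers. These r describe 9 arrays that fall into 3 groups and were normalized together.

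The list of other HSP90 co-chaperones also holds Hsp90b1 and Trap1, which encode HSP90 proteins themselves. Of its 17 measured genes (19 listed), 1 fell and none rose in MUP against WT, where 2.13% of all probe sets were called lower. The same count held in HNK against WT, where 1.33% were called lower. In both it was Sugt1, which encodes the co-chaperone SGT1, with 9.32, 9.12 and 9.03 in HNK, 8.52, 9.39 and 8.94 in MUP, and 10.29, 10.30 and 10.14 in WT livers. Its differences were -1.29 (SE 0.23, limma adjusted p = 0.011) for MUP against WT and -1.08 (SE 0.23, adjusted p = 0.035) for HNK against WT. Without WT 1 they were -1.26 (limma adjusted p = 0.058) and -1.06 (adjusted p = 0.13), and without MUP 2 and HNK 3 the call in HNK was lost as well (adjusted p = 0.056). In the 9 fits with 1 array left out, Sugt1 was called in 8 for MUP and in 2 for HNK. The list's median was 0.08 for MUP against WT and -0.13 for HNK against WT, beside 0.0040 and -0.0055 over all probe sets. With HNK set against MUP none was called by limma (1 at an unadjusted p under 0.05, beside 4.36% of all probe sets). The median was -0.16, beside -0.0099 over all probe sets. There the lowest was Chordc1, another HSP90 co-chaperone, at -0.62 (95% interval -1.24 to -0.0046), and the highest Cdc37, the adaptor for kinases, at 0.22.

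Another list held genes of the HSP70 system, small heat shock proteins, and Hspd1, Hspe1 and Hsf2. Of its 21 measured genes (24 listed), 2 rose, 1 fell and 18 were not called in MUP against WT, where 1.44% of all probe sets were called higher and 2.13% lower. In HNK against WT 1 rose, 2 fell and 18 were not called, where 0.964% of all probe sets were called higher and 1.33% lower. Hspb1, which encodes the small heat shock protein HSP27, was at 7.76, 7.25 and 8.01 in HNK, 7.63, 7.54 and 6.76 in MUP, and 9.49, 9.79 and 9.17 in WT livers. Its differences were -2.18 (SE 0.29, limma adjusted p = 0.0030) for MUP against WT and -1.81 (SE 0.29, adjusted p = 0.011) for HNK against WT. On every HNK and MUP array Hspb1 lay below the 95th percentile of the negative controls, so these sizes rest in part on dim values. Hspa9, the mitochondrial HSP70, rose by 1.33 (SE 0.18, adjusted p = 0.0030) in MUP and by 0.97 (SE 0.18, adjusted p = 0.019) in HNK against WT, with 13.25 to 13.49 in HNK, 13.72 to 13.83 in MUP and 12.12 to 12.60 in WT livers. Hspa5, the HSP70 of the endoplasmic reticulum, fell by 1.14 (SE 0.18, adjusted p = 0.010) in HNK against WT. Dnajb6, an HSP40 gene, rose by 0.72 (SE 0.17, adjusted p = 0.042) in MUP against WT, and that call was lost without MUP 2 and HNK 3 (adjusted p = 0.12). It was kept in 2 of the 9 fits with 1 array left out. Without WT 1, Hspa9 and Hspb1 were still called in MUP against WT and Hspa5 in HNK against WT, and the other calls of the list were lost. The call of Hspa5 was lost without WT 3 (adjusted p = 0.063), and that of Hspa9 in HNK without WT 3, HNK 1 or HNK 2 as well.

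Between HNK and MUP none of these 21 genes was called by limma (2 at an unadjusted p under 0.05, beside 4.36% of all probe sets). The median was -0.19, beside -0.0099 over all probe sets. The lowest was Hsph1, an exchange factor of HSP70, with 8.36, 9.47 and 9.38 in HNK against 9.96, 10.46 and 10.35 in MUP livers (-1.19, 95% interval -1.84 to -0.53). The highest was Hspb1 at 0.37. Named for its values after they were seen, Cryab, a small heat shock protein that muscle makes in quantity, was at 12.52 in HNK 3 and 11.91 in MUP 2 and 5.26 to 6.26 on the other 7 arrays. It was not called, and those are the 2 arrays with skeletal muscle transcripts.

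Of 11 measured other FK506-binding proteins (13 listed), the relatives of FKBP51 by their FK506-binding fold, 1 fell and none rose in MUP against WT, where 2.13% of all probe sets were called lower. This was Fkbp1a, which encodes FKBP12, the binding protein of FK506 and rapamycin, with 8.89, 9.37 and 8.52 in MUP against 10.32, 9.94 and 9.96 in WT livers (-1.15, SE 0.27, limma adjusted p = 0.037). In HNK against WT, where 0.964% of all probe sets were called higher, 1 rose and none fell. This was Fkbp15, an endosomal member, with 10.76, 10.68 and 10.91 in HNK against 9.69, 9.95 and 9.96 in WT livers (0.92, SE 0.20, adjusted p = 0.040). Fkbp1a was not called without WT 1 and Fkbp15 was called neither without WT 1 nor without MUP 2 and HNK 3. In the 9 fits with 1 array left out, Fkbp1a was called in 4 and Fkbp15 in 3. HNK against MUP gave no call by limma (0 at an unadjusted p under 0.05, beside 4.36% of all probe sets). The extremes were Fkbp14 at -0.64 and Fkbp15 at 0.43.

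**Figure D4:**
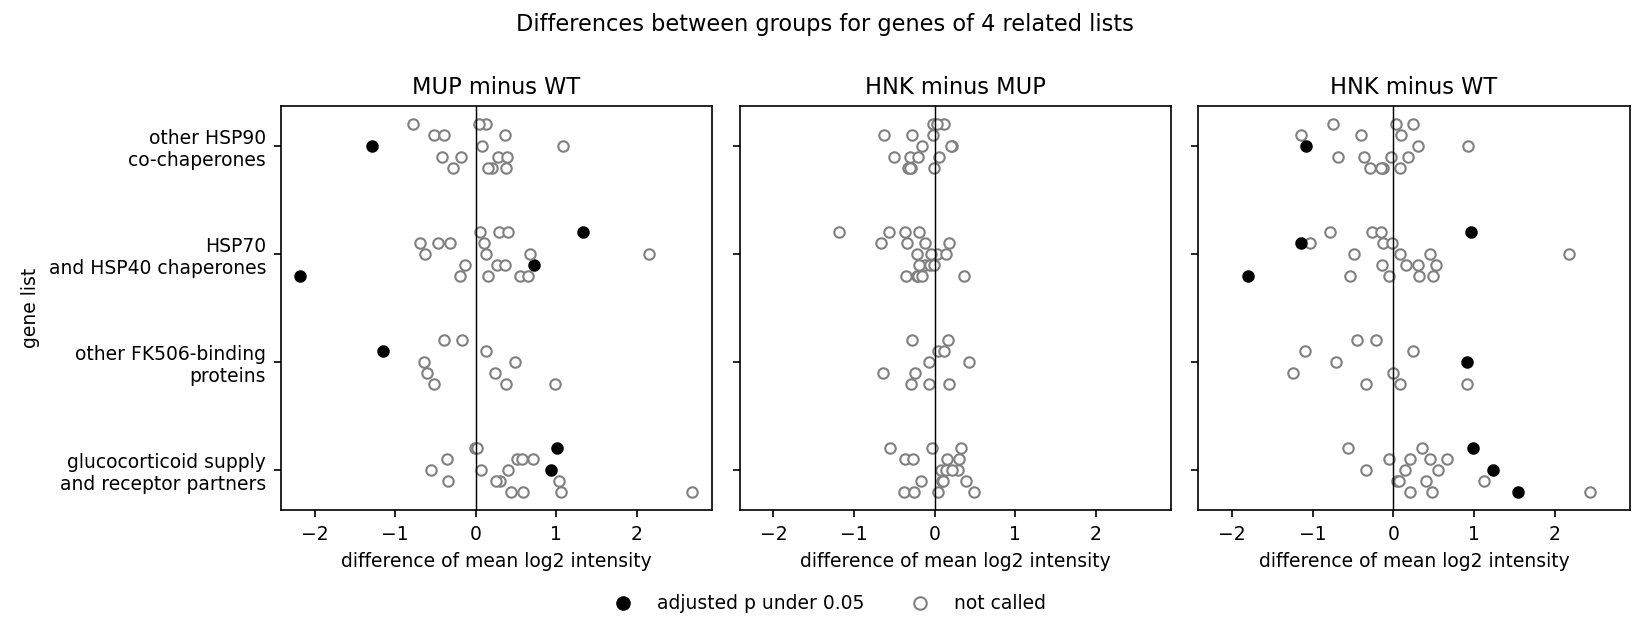
Difference of mean log2 intensity (horizontal axis) for the genes of 4 related lists (vertical axis, points spread for visibility) in 3 comparisons of 3 arrays against 3; filled circles passed an adjusted p of 0.05 over all probe sets. For the list labelled HSP70 and HSP40 chaperones, filled circles lie on both sides of 0 in the comparisons with WT. They run from -2.18 for Hspb1, a small heat shock protein also in that list, to 1.33 for Hspa9. There are no filled circles in HNK minus MUP.

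Of 19 measured genes of glucocorticoid supply and receptor partners (22 listed), 2 rose and none fell in MUP against WT, and 3 rose and none fell in HNK against WT, where 1.44% and 0.964% of all probe sets were called higher. Crebbp, which encodes the co-activator CBP, rose by 1.01 (SE 0.19, limma adjusted p = 0.016) in MUP and by 0.98 (SE 0.19, adjusted p = 0.024) in HNK against WT. Akr1d1, a steroid reductase that inactivates glucocorticoids, rose by 0.94 (SE 0.21, adjusted p = 0.033) in MUP and by 1.23 (SE 0.21, adjusted p = 0.014) in HNK, with 13.67 to 14.41 in HNK, 13.55 to 14.01 in MUP and 12.71 to 12.87 in WT livers. Abcb1a, a drug efflux pump that also carries glucocorticoids, rose by 1.55 (SE 0.33, adjusted p = 0.036) in HNK against WT. Abcb1a was dim, below the 95th percentile of its array's negative controls, on every array but HNK 1 (9.08, 7.52 and 8.13 in HNK 1 to HNK 3). Without HNK 1 its difference was 1.13 and was not called (limma adjusted p = 0.069). None of these 5 calls was kept without WT 1, and the calls of Crebbp and Abcb1a in HNK were lost without MUP 2 and HNK 3. In the 9 fits with 1 array left out, Crebbp was called in 6 for MUP and 4 for HNK. Akr1d1 was called in 4 of them for MUP and 7 for HNK, and Abcb1a in 3 for HNK. Hsd11b1, which regenerates active glucocorticoid, and Serpina6, which encodes its plasma carrier, were not called, with differences of 0.44 and 0.25 for MUP against WT and 0.48 and 0.07 for HNK against WT. These 2 were picked for their role after their values were seen. The list's median was 0.44 for MUP against WT, 0.09 for HNK against MUP and 0.40 for HNK against WT, beside 0.0040, -0.0099 and -0.0055 over all probe sets. HNK against MUP gave no call by limma (1 at an unadjusted p under 0.05, beside 4.36% of all probe sets). The extremes were Abcb1a at 0.49 and Hnf4a, a hepatocyte transcription factor, at -0.55.

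Other genes that glucocorticoids induce were called in both directions. Of 30 measured, 2 rose and 3 fell in MUP against WT, where 1.44% of all probe sets were called higher and 2.13% lower. In HNK against WT 1 rose and 3 fell, where 0.964% were called higher and 1.33% lower. The medians were -0.64 and -0.48, beside 0.0040 and -0.0055 over all probe sets. In HNK against MUP none was called. At an unadjusted p under 0.05 limma took 0 and the methods' t-test 1, beside 4.36% and 4.03% of all probe sets. The median was -0.07, with Sult1e1, an estrogen sulfotransferase gene, at 1.18 and Pck1, the gene of a gluconeogenic enzyme, at -1.06 as the extremes. Cdkn1a, the gene of p21, which halts the cell cycle, fell most, with 6.86, 6.20 and 6.72 in HNK, 6.74, 5.73 and 7.47 in MUP, and 10.79, 11.52 and 12.13 in WT livers, differences of -4.84 (SE 0.43, limma adjusted p = 0.00029) for MUP and -4.89 (SE 0.43, adjusted p = 0.00026) for HNK against WT. Dusp1, a phosphatase of MAP kinases, fell by 2.07 (SE 0.36, adjusted p = 0.010) in MUP and by 1.99 (SE 0.36, adjusted p = 0.018) in HNK. G6pc, of gluconeogenesis, fell by 1.30 (SE 0.31, adjusted p = 0.045) in MUP, and Igfbp1, an IGF-binding protein, by 3.26 (SE 0.73, adjusted p = 0.040) in HNK. Usp2, a deubiquitinase, rose by 3.29 (SE 0.60, adjusted p = 0.012) in MUP, and the urea cycle gene Cps1 by 1.24 (SE 0.22, adjusted p = 0.010) in MUP and by 0.94 (SE 0.22, adjusted p = 0.047) in HNK. The calls of G6pc in MUP and of Cps1 in HNK were lost without MUP 2 and HNK 3 (adjusted p = 0.053 and 0.12), and under several other settings, among them median centring and, for G6pc, the replicate block (adjusted p = 0.0505). The 95th percentile of the negative controls was at least 8.24 on every array. Cdkn1a lay below 8.24 on every HNK and MUP array, Igfbp1 on every HNK array, Usp2 on every WT array and Sult1e1 on all 9. The sizes of their differences rest in part on such dim values. Usp2 stood above the 95th percentile of its array in MUP 2 only (9.91, against 8.39), an array with muscle transcripts.

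Within WT, 1 array stood low in these genes. Counting Fkbp5, Zbtb16 and Tsc22d3, 33 glucocorticoid-induced genes were measured, and WT 1 was the lowest of the 3 WT arrays for 23 of them, against 34.1% of all probe sets. It was lowest by at least 1 log2 unit for 12 of the 33, against 0.545% of all probe sets, and on the other 8 arrays that number was 0 to 6. Per1, a clock gene that glucocorticoids induce, was at 4.18 in WT 1 against 6.55 and 6.27 in WT 2 and WT 3. Per1 was dim: its WT 1 value lay below the middle negative control of that array (4.91). All its values lay below the 95th percentile of the negative controls. Tat, tyrosine aminotransferase, was at 16.25 against 18.45 and 18.05, and Errfi1, which encodes the EGFR inhibitor MIG6, at 15.03 against 17.36 and 17.20. WT 1 was the lowest of all 9 arrays for 10 of the 33, against 13.2% of all probe sets. This was noticed after the values had been seen and has no test.

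Over all probe sets WT 1 minus the mean of WT 2 and WT 3 had a median of 0.01, against -0.95 over the 33 genes. Without WT 1, the 30 genes other than Fkbp5, Zbtb16 and Tsc22d3 had medians of -0.81 for MUP against WT and -0.60 for HNK against WT, with none called higher. Of the calls above Cdkn1a alone was kept, in both comparisons, while Dusp1 (adjusted p = 0.058 in MUP and 0.089 in HNK), G6pc, Igfbp1, Usp2 and Cps1 were not called and Gadd45g, a stress-induced gene, was called lower in MUP (-1.77, limma adjusted p = 0.024). Gadd45g lay below 8.24, the limit used above for dim values, on every MUP array (6.65, 7.40 and 7.32). The size of its difference thus rests in part on dim values. Calls fell whichever WT array was left out. Without WT 1, WT 2 and WT 3, MUP against WT gave 265, 395 and 271 calls over all probe sets, against 794. G6pc in MUP and Igfbp1 and Cps1 in HNK were also lost without WT 2 and without WT 3. Dusp1 in HNK was lost without WT 2 as well, and Usp2 in MUP without WT 3. Without MUP 2 and HNK 3, Cdkn1a, Dusp1, Usp2 and Cps1 were still called in MUP against WT, and Cdkn1a, Dusp1 and Igfbp1 in HNK against WT. In that fit Pdk4, a kinase gene of glucose oxidation, was called lower in both (-2.43 and -2.40). Pdk4 lay below 8.24 in MUP 1 and MUP 3 (6.55 and 5.93) and in HNK 1 and HNK 2 (6.30 and 6.24). It did so in WT 3 as well (8.08), so the sizes of both Pdk4 differences rest in part on dim values. For Errfi1 the difference was 0.69 for MUP against WT, -0.17 for HNK against MUP and 0.53 for HNK against WT, none of them called, with 16.47, 17.32 and 17.38 in HNK and 16.80, 17.41 and 17.45 in MUP livers. Without WT 1 both differences from WT turned their sign, to -0.06 for MUP and -0.22 for HNK, and neither was called.

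**Figure D5:**
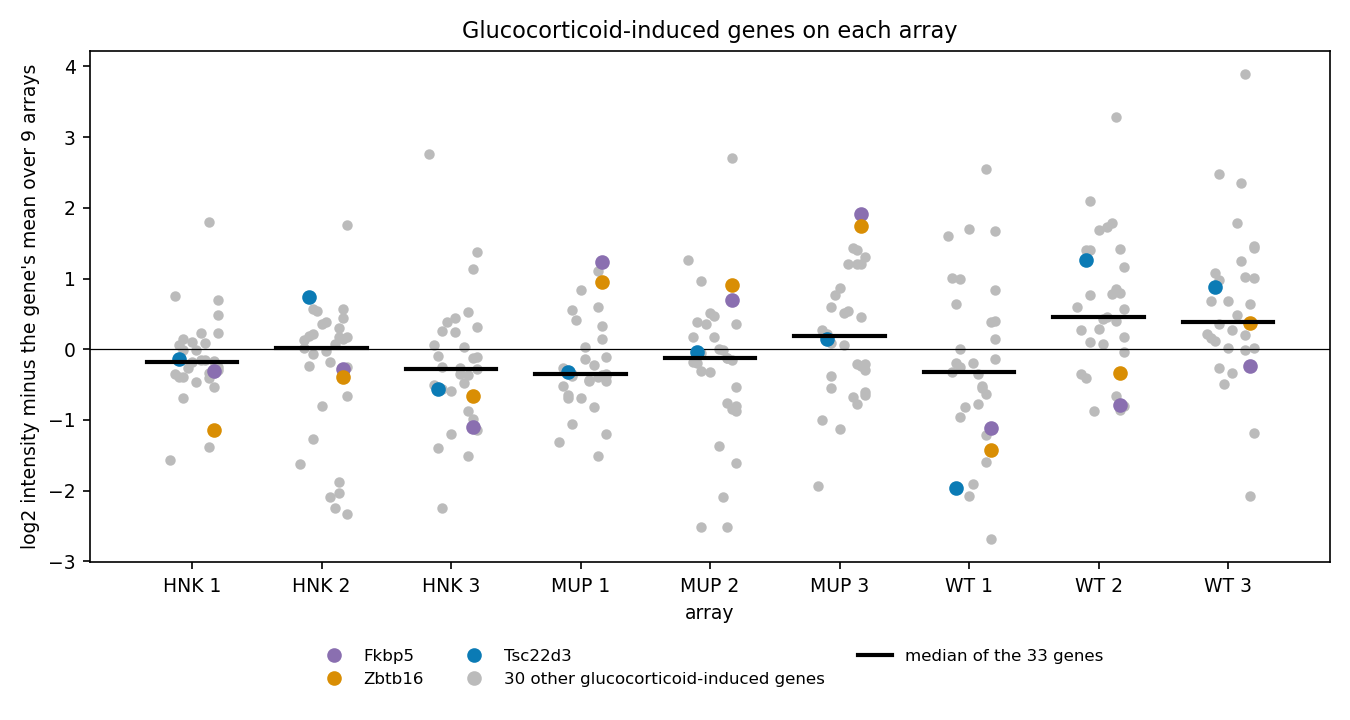
Log2 intensity of 33 glucocorticoid-induced genes on each array (horizontal axis), each minus the gene's mean over the 9 arrays (vertical axis); bars are medians over the genes and 3 genes are coloured. Fkbp5 and Zbtb16 lie above their own mean on the 3 MUP arrays alone apart from Zbtb16 in WT 3, and in WT 1 all 3 coloured genes lie below it.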

How the data were processed

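Total RNA of 9 mouse liver samples (HNK, MUP and WT, 3 arrays each) was measured on Clariom S arrays. The deposited values are linear intensities per probe set, which the authors made with RMA in Affymetrix Expression Console per the labels (background correction, quantile normalization and summary of the probes; no version or build was given in the sources used here). Quantile normalization sets all arrays to 1 distribution, so that a change of total RNA cannot be seen. The number of arrays limits the precision.

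The intensities were turned into log2 values. Of 28846 rows, 6640 controls were left out, and 5222 of them served as negative controls. The 22206 probe sets left were fitted in 1 model of 9 arrays with a mean per group (limma 3.58.1 with a variance trend, R 4.3.3, statmod 1.5.0 for blocks). Two-sided p-values were Benjamini-Hochberg adjusted over all 22206, with calls under 0.05 and 95% intervals. Symbols came from the platform annotation, with 19572 probe sets under 1 symbol. Each listed gene had 1 probe set at most. The fit was tested on simulated data.

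Genes and lists were chosen with earlier results of these data known. Named were all listed genes, the genes of each related list that passed the test (up to 6 per comparison, otherwise its extremes) and the genes most correlated with Fkbp5 (5) and Hsp90aa1 (3). No pairing by replicate number was assumed, and correlations of same-numbered arrays' deviations from their group means ran from -0.29 to 0.40. Deviations of 3 arrays sum to 0, so these correlations cannot decide on pairing, and the block was only an alternative. The methods' t-test, other scalings and filters, weights and left-out arrays were alternatives.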

Additional observations from a re-analysis of the deposited data

How the results depend on the processing

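Limits: 3 arrays per group, muscle transcripts in MUP 2 and HNK 3, a low WT 1 for glucocorticoid-induced genes and marker sums that differ between groups bound every value above. With all arrays limma called 794 probe sets in MUP against WT, 1 in HNK against MUP and 509 in HNK against WT. The methods' t-test after adjustment called 0 in MUP against WT and 0 in HNK against WT, of the tested genes as well (0 against 1, and 0 against 2), while the single call in HNK against MUP became 0 with the arrays of both groups alone, with probe sets of 1 gene symbol, and without MUP 2 and HNK 3. Leaving out 1 array in turn gave 265 to 918, 0 to 2 and 114 to 565 probe sets in the same order, with the lowest without WT 1 for MUP and without WT 3 for HNK set against WT. The tested genes called were 1 to 1, 0 to 0 and 1 to 2. Hsp90aa1 was called in both comparisons with WT whichever array was left out, and lost its calls with the methods' t-test only (adjusted p = 0.12 and 0.0606), with which Stip1 lost its call in HNK against WT as well (adjusted p = 0.20). With the replicate number as a replicate block, limma called 867, 1 and 586 probe sets and 1, 0 and 2 of the tested genes, which changed no call of theirs. Of 18 comparisons of an array with another group, 8 were closest to their own number, and the deviations of MUP 2 and HNK 3, which bear different numbers, correlated at 0.54.

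Among the tested genes, signs that turned belonged to differences near 0, none of them called. Errfi1, of the related lists, turned from larger differences when WT 1 was left out. It went from 0.69 to -0.06 in MUP against WT and from 0.53 to -0.22 in HNK against WT, and was not called. Ptges3 in MUP against WT was 0.022 with cyclic loess and 0.019 with median centring, and -0.23 to 0.19 with 1 array left out. Without MUP 2 and HNK 3, HNK minus MUP was 0.081 for Fkbp4 and 0.065 for Ptges3, and HNK minus WT was 0.24 for Tsc22d3. Tsc22d3 was -0.061 in HNK against MUP with array weights and 0.0056 in HNK against WT with cyclic loess. With 1 array left out, Tsc22d3 ran from -1.14 to 0.47 in MUP against WT, -0.28 to 0.37 in HNK against MUP and -1.06 to 0.56 in HNK against WT. In HNK against MUP the ranges were -0.23 to 0.18 for Fkbp4, -0.39 to 0.14 for Nr3c1 and -0.32 to 0.11 for Ptges3, and in HNK against WT -3.07e-05 to 0.30 for Nr3c1. The cause was not tested. The alternative without WT 1 for the related lists was chosen after seeing the data.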
